A study of Mus musculus with 20 samples.

Results

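Border-associated macrophages are the macrophages of the brain's coverings: the meninges, the spaces around blood vessels and the choroid plexus. Transcripts of 10 genes are described here, chosen by gene name out of 54532 genes in the table, with earlier results of these data known. Of these, 6 are used as markers of perivascular and meningeal macrophages (Mrc1, Cd163, Pf4, Lyve1, Cbr2 and F13a1), and 4 belong to the Ms4a family (Ms4a7, Ms4a6b, Ms4a6c and Ms4a6d). RNA from 1 brain hemisphere per library was sequenced after selection of polyadenylated RNA in 20 mouse libraries, 5 for each of 4 genotypes. The genotypes were WT (wild type), Glb1KO (Glb1 knocked out), Neu3KO (Neu3 knocked out) and DKO (both genes knocked out). The product of Glb1 is a lysosomal enzyme that takes the end galactose off GM1 ganglioside. The product of Neu3 is a membrane sialidase with gangliosides as its substrates. The labels gave no age and no treatment and did not say whether libraries are from different animals, so p-values measure the spread between these libraries.

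Border macrophages share their early origin with microglia, the macrophages inside the brain tissue, and are told from them by scavenger and uptake receptors. Mrc1 (CD206) takes up glycoproteins that end in mannose, Cd163 takes up haemoglobin bound to haptoglobin, and Lyve1 binds hyaluronan. Pf4 is a chemokine also stored in platelets, F13a1 is the catalytic chain of clotting factor XIII, and Cbr2 is a carbonyl reductase. The Ms4a proteins cross the membrane several times and lie in a cluster of related genes. Ms4a7 is widely used as a marker of border macrophages and of macrophages that entered the brain from blood. In RNA from whole tissue, fewer cells of a type and less RNA per cell cannot be told apart, nor can more cells and more RNA per cell.

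All 4 Ms4a genes lie on chromosome 19 of GRCm38, within 0.284 Mb. This span runs from the 3' end of Ms4a7 (11321039, minus strand) to the 5' end of Ms4a6d (11604849, minus strand). Between them lie Ms4a6c (11469366 to 11482192) and Ms4a6b (11516512 to 11531256), both on the plus strand. Sequences before RefSeq starts of the genes are shown because those of Ms4a6c and Ms4a6b resembled each other. Ms4a6c and Ms4a6b rose 10.05-fold and 3.89-fold in DKO. Ms4a7 changed most, and Mrc1 and Pf4 are markers with a large and a small change. Upstream windows of 250 bases from RefSeq (GRCm38.p6) matched 8 of the 10 genes by symbol, all but Lyve1 and Ms4a6d. Parts that overlap an annotated exon are left out. The window of Ms4a6b starts at 11518309, inside the span of that gene given above. It therefore lies before a RefSeq start but not before the annotated gene. The stretches lie at chr19:11469118-11469365 for Ms4a6c, chr19:11518309-11518452 for Ms4a6b, chr19:11336147-11336396 on the minus strand for Ms4a7, chr2:14229164-14229391 for Mrc1 and chr5:90772185-90772434 for Pf4. Each reads from 5' to 3' towards the RefSeq start, and capitals mark GAGGAAG or AGGAAGT on either strand. These are short motifs of the kind bound by the macrophage factor PU.1 and its Ets relatives.
Ms4a6c: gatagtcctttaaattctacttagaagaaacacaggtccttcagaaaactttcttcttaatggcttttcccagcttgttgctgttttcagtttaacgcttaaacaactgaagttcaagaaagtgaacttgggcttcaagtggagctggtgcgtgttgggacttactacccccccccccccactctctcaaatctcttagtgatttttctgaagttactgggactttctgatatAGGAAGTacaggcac
Ms4a6b: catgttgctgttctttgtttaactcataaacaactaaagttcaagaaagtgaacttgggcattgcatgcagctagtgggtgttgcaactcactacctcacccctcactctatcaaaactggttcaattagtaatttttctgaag
Ms4a7: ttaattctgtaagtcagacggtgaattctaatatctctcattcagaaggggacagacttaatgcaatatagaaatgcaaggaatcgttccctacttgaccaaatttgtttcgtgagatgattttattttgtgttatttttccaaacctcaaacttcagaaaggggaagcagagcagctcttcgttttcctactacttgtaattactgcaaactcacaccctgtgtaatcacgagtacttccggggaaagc
Mrc1: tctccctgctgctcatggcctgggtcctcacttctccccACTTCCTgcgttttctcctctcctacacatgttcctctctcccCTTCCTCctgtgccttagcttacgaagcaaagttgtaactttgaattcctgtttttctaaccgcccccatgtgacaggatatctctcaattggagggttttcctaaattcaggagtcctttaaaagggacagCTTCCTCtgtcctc
Pf4: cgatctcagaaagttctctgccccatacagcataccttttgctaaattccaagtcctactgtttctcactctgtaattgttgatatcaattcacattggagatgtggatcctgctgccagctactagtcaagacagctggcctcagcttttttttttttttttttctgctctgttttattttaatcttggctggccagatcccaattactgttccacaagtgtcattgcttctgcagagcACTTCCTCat

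In a local alignment of the 250-base windows, Ms4a6c and Ms4a6b were identical at 152 of 182 aligned positions (83.5%). The next pair by alignment score, F13a1 and Ms4a7, was identical at 59.3%. GAGGAAG was found in windows of 4 of the 8 genes (Mrc1, Pf4, Cbr2 and F13a1) and in 10.6% of 32851 promoter windows of the same length. AGGAAGT, a motif added after the sequences were seen, overlapped GAGGAAG in Pf4. It was found in 5 of the 10 windows (Mrc1, Pf4, F13a1 at a second start site, Ms4a6c and Ms4a6b) and in 7.69% of all windows. In Ms4a6b both of its matches lay within the exonic part left out above. TGANTCA, the AP-1 motif, was found in 1 of the 10 windows, that of Ms4a7 at a second start site, and in 6.75% of all windows. TGCTGA (a partial Maf site, 16.1% of windows), CACGTG (6.02%) and TTCNNNGAA (7.02%) were found in none of the 8 genes. A match is a description of letters, not of a bound site.

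Counts per library summed to between 15162311 and 25145806 reads, and 18336 genes (33.6%) were kept by edgeR's filter for low counts and tested. All 10 genes were among these. Their reads were few, from 179 for Pf4 to 1435 for Mrc1 over the 20 libraries. Glb1 stood at 20.2 ± 1.32 CPM (read counts scaled to library depth with TMM factors) in WT and at 3.38 ± 0.903 CPM in Glb1KO and 3.999 ± 1.07 CPM in DKO (SD, n = 5 each). Neu3 stood at 3.85 ± 1.22 CPM in WT, 2.86 ± 0.409 CPM in Neu3KO and 2.98 ± 0.826 CPM in DKO (SD, n = 5 each), and neither difference passed the test. The identifiers of all 5 WT libraries start with the letter E. In Glb1KO 2 start with E and 3 with L, in Neu3KO 1 with E and 4 with W, and in DKO 2 with E and 3 with W. The sources used here do not say what these letters mean. Results of the 10 genes are therefore also given with the letter as a term in the fit, or among E libraries, where that changed them.

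DKO was compared with WT, the comparison named in the series design. Of the 10 genes, 8 were higher in DKO, 0 were lower and 2 did not pass (edgeR quasi-likelihood test, adjusted p under 0.05 over all genes tested). Among all 18336 genes, 14% were called higher and 15.1% lower. Since the 10 genes were chosen with earlier results known, their counts beside such shares are a description. The median log2 change of the 10 genes was 1.60, against -0.003 for all genes tested. In 7 genes every DKO library stood above every WT library, which held for 9.28% of all genes. The Ms4a genes changed most and the haemoglobin receptor Cd163 least among the genes that rose.

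**Figure D1:**
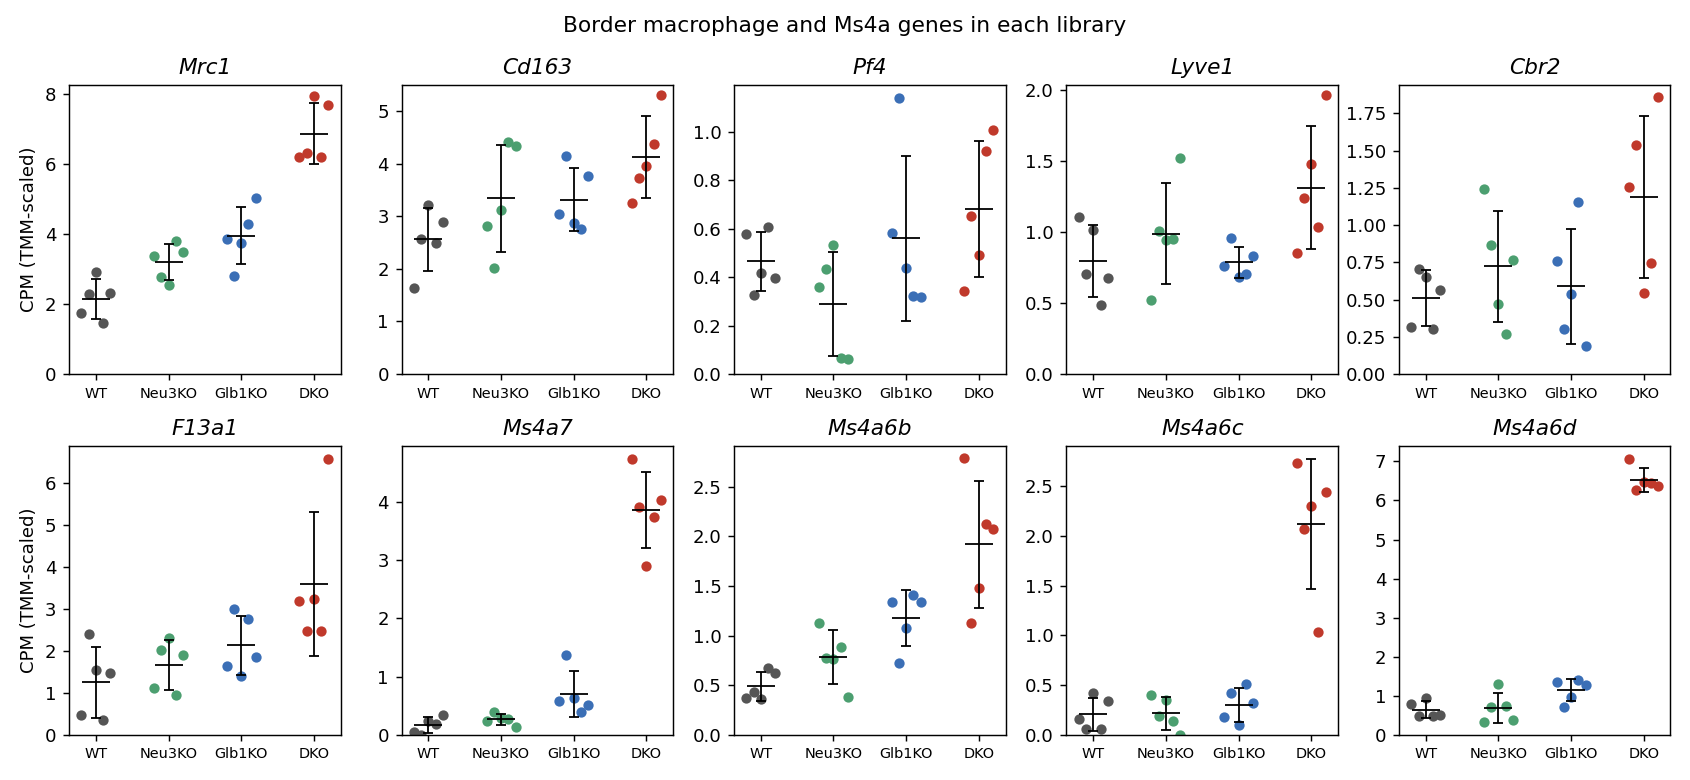
CPM (TMM-scaled) of each of the 10 genes in each library, with 5 points per genotype in replicate order and the mean and SD in black. The DKO libraries of Mrc1, Ms4a7, Ms4a6c and Ms4a6d stood above all 15 other libraries, whereas those of Pf4 and Lyve1 overlapped WT.

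Ms4a7 was nearly undetected in WT, with 1, 0, 4, 3 and 6 reads in replicates 1 to 5. In DKO it had 83, 66, 53, 65 and 76 reads. The lowest DKO library was far above the highest WT library. Its log2 change was 4.54 (SE 0.41, n = 5 per group, edgeR adjusted p = 1.2e-10), a 23.2-fold rise from 0.163 ± 0.138 to 3.86 ± 0.655 CPM (SD). Since the WT level rests on 14 reads in all, the size of this fold is loosely fixed. Leaving out each library in turn moved the log2 change between 4.22 and 5.003. With the deposited FPKM values on the log2(FPKM + 0.1) scale, which understates changes of low genes, it was 2.84.

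Ms4a6d had 15, 9, 16, 8 and 9 reads in WT and 124, 106, 118, 112 and 120 reads in DKO. The DKO libraries were close together, at 6.52 ± 0.31 CPM (SD, n = 5), and did not overlap WT. The rise was 9.999-fold (log2 3.32, SE 0.27, n = 5 per group, edgeR adjusted p = 6.06e-12).

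Ms4a6c had 3, 1, 7, 1 and 6 reads in WT and 48, 35, 42, 18 and 46 reads in DKO. The groups did not overlap, and DKO replicate 4 was the lowest DKO library. The log2 change was 3.33 (SE 0.48, n = 5 per group, edgeR adjusted p = 1.73e-06). Of the 100-base stretches in its transcripts, 45.8% also occur in transcripts of BE692007, a gene on the opposite strand, or of Prdm11, so Ms4a6c could share reads with BE692007 in the authors' counting, for which the sources used here do not state strand. BE692007 itself had 8 reads over the WT libraries and 35 over the DKO libraries, against 18 and 189 for Ms4a6c.

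Ms4a6b changed less than its neighbours. It had 7, 8, 6, 11 and 11 reads in WT and 49, 19, 27, 37 and 39 reads in DKO, without overlap. The log2 change was 1.96 (SE 0.33, n = 5 per group, edgeR adjusted p = 2.06e-05). The 3 Ms4a6 genes shared no 100-base stretch of transcript with each other, so reads of that length could be assigned to 1 of them.

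Mrc1, the mannose receptor, had 33, 42, 49, 24 and 41 reads in WT and 109, 107, 145, 108 and 145 reads in DKO. Every DKO library had more than 2 times the reads of any WT library. The rise was 3.20-fold (log2 1.68, SE 0.18, n = 5 per group, edgeR adjusted p = 6.89e-09), from 2.14 ± 0.567 to 6.88 ± 0.866 CPM (SD).

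F13a1 had 9, 44, 26, 6 and 26 reads in WT and 56, 42, 59, 43 and 124 reads in DKO. On the CPM scale the groups did not overlap, but the WT libraries spread from 0.365 to 2.40 CPM and the lowest DKO library stood at 2.47 CPM. The log2 change was 1.52 (SE 0.38, n = 5 per group, edgeR adjusted p = 0.00358). With the identifier letter in the fit it was 1.14 (edgeR adjusted p = 0.0853), and among E libraries 1.19 (edgeR adjusted p = 0.128).

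Cbr2 had 6, 13, 11, 5 and 10 reads in WT and 22, 26, 10, 13 and 35 reads in DKO. DKO replicate 3 stood within the WT range. The log2 change of 1.21 (SE 0.43, n = 5 per group, edgeR adjusted p = 0.0316) was near the threshold. It was lost without WT replicate 1 (adjusted p = 0.0755), WT replicate 4 (0.0792), DKO replicate 2 (0.073) or DKO replicate 5 (0.116), all with edgeR, and among E libraries (1.45, adjusted p = 0.0775). It was also lost on the deposited FPKM scale with limma (0.99, adjusted p = 0.0583).

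Cd163, the haemoglobin scavenger receptor, had 31, 47, 54, 41 and 51 reads in WT and 57, 63, 72, 76 and 100 reads in DKO. The highest WT library, at 3.22 CPM, stood just below the lowest DKO library, at 3.25 CPM. The log2 change was 0.69 (SE 0.21, n = 5 per group, edgeR adjusted p = 0.0119). With the identifier letter in the fit it was 0.47 (edgeR adjusted p = 0.212), and among E libraries 0.46 (edgeR adjusted p = 0.321).

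Lyve1 and Pf4 did not pass the test. Lyve1 had 21, 13, 17, 8 and 12 reads in WT and 15, 21, 27, 18 and 37 reads in DKO, with a log2 difference of 0.71 (SE 0.32, edgeR adjusted p = 0.0922). Pf4 had 11, 6, 7, 10 and 7 reads in WT and 6, 11, 9, 16 and 19 reads in DKO, with a log2 difference of 0.55 (SE 0.45, edgeR adjusted p = 0.396). Both groups overlapped for both genes.

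Among E libraries alone, 5 of the 10 genes were called higher in DKO than in WT (Mrc1 and the 4 Ms4a genes), against 7.3% of 20091 genes tested there. With the letter as a term 6 were called, these 5 and Cbr2, against 9.3%. The authors' deposited table for this comparison gave an adjusted p under 0.05 to the same 8 genes, with log2 changes from 0.70 for Cd163 to 4.60 for Ms4a7. That table also left Pf4 (adjusted p = 0.453) and Lyve1 (adjusted p = 0.15) uncalled, and it rests on the same libraries.

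Glb1KO was compared with WT, for the loss of Glb1 alone. Here 3 of the 10 genes were higher (Mrc1, Ms4a7 and Ms4a6b) and 0 were lower, against 1.75% of all genes called higher and 2.21% called lower. Ms4a7 had 10, 23, 13, 6 and 8 reads in Glb1KO. All 5 Glb1KO libraries stood above WT on the CPM scale, and replicate 2 was well above the others. The log2 change was 2.09 (SE 0.48, n = 5 per group, edgeR adjusted p = 0.00601), but 1.45 with the letter in the fit (edgeR adjusted p = 0.448) and 1.45 among E libraries (edgeR adjusted p = 0.516). Ms4a6b had 23, 12, 22, 22 and 21 reads in Glb1KO and stood above WT in every library. Its log2 change was 1.25 (SE 0.34, n = 5 per group, edgeR adjusted p = 0.0284). The size was 1.48 with the letter in the fit, where it did not pass (edgeR adjusted p = 0.0809), and the call was also lost without any of WT replicates 1, 2 and 3 or Glb1KO replicates 1, 4 and 5. The smallest log2 change among these was 1.17. Mrc1 had 66, 47, 77, 67 and 79 reads in Glb1KO, with 1 library within the WT range. Its log2 change was 0.88 (SE 0.19, n = 5 per group, edgeR adjusted p = 0.0032), and it was the 1 gene of the 10 called with the letter in the fit (1.12, edgeR adjusted p = 0.00437, against 0.682% of all genes) and among E libraries (1.12, edgeR adjusted p = 0.0151, against 0.652%). In 2 of the 10 genes, Ms4a7 and Ms4a6b, every Glb1KO library stood above every WT library, which held for 2.6% of all genes.

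Ms4a6d and Ms4a6c, raised about as far as each other in DKO, did not pass in Glb1KO. Ms4a6d had 23, 12, 20, 22 and 20 reads there (log2 difference 0.81, SE 0.30, edgeR adjusted p = 0.143). Ms4a6c had 3, 7, 2, 8 and 5 reads (0.52, SE 0.60, edgeR adjusted p = 0.738). Both overlapped WT. The other 5 genes had log2 differences from -0.03 for Lyve1 to 0.75 for F13a1.

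Neu3KO was compared with WT, for the loss of Neu3 alone. edgeR called 0 of the 10 genes and 0% of all genes. Mrc1 was the 1 gene of the 10 under 0.05 before adjustment (log2 difference 0.57, SE 0.19, edgeR adjusted p = 0.706), against 6.03% of all genes. DESeq2 called 0 of the 10 and 2 genes in all. Mrc1 had 84, 58, 43, 56 and 55 reads in Neu3KO and overlapped WT. Pf4 had 9, 9, 9, 1 and 1 reads in Neu3KO, with a log2 difference of -0.60 (SE 0.50). It was the only gene of the 10 with a negative estimate. In 0 of the 10 genes did all Neu3KO libraries stand above all WT libraries, which held for 0.524% of all genes. Ms4a7 had 6, 8, 5, 4 and 2 reads and Ms4a6d 8, 15, 22, 11 and 6, both overlapping WT. Of the Neu3KO libraries 1 shared the letter E with WT, so letter and genotype cannot be told apart in most of this comparison.

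**Figure D2:**
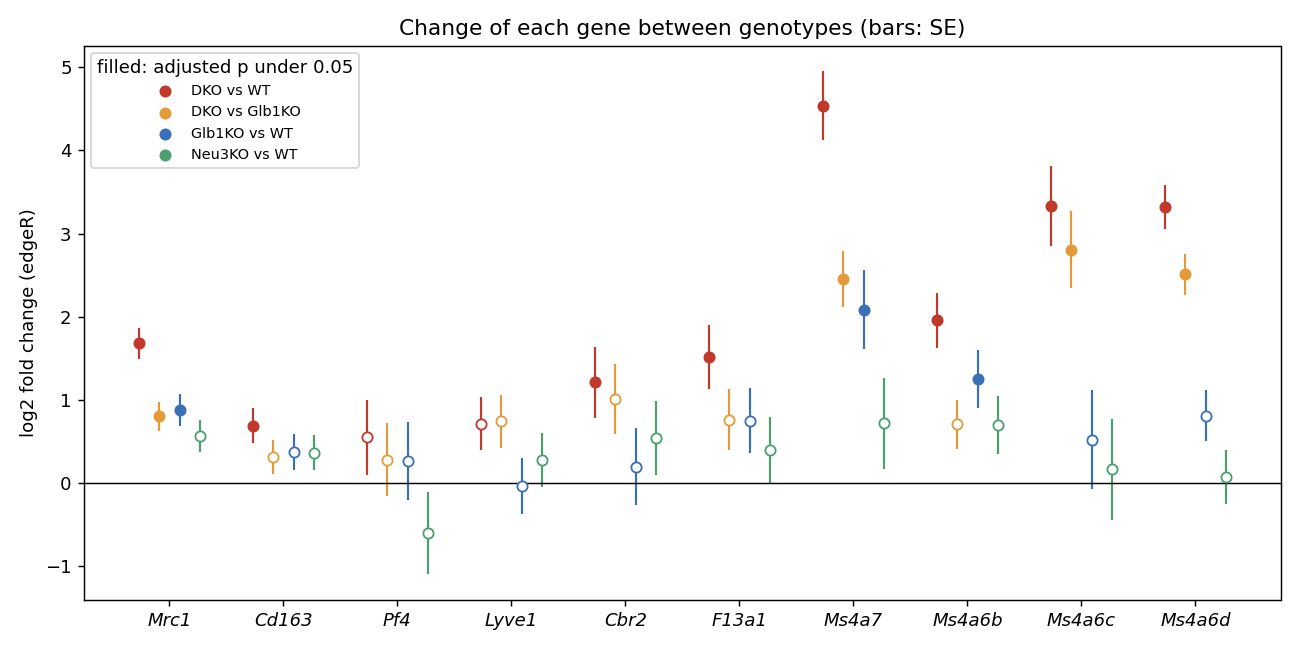
Log2 fold change of each gene (edgeR) in 4 comparisons, with bars of 1 SE and filled points where the adjusted p was under 0.05. Ms4a7 stood at 4.54 in DKO vs WT, and the estimates for Neu3KO vs WT ran from -0.60 to 0.72 with none filled.

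DKO was compared with Glb1KO, for the loss of Neu3 where Glb1 was already lost. Of the 10 genes, 4 were higher in DKO (Mrc1, Ms4a7, Ms4a6c and Ms4a6d) and 0 were lower, against 8.41% of all genes called higher and 7.29% lower. In the same 4 the groups did not overlap, which held for 6.78% of all genes. Ms4a6c rose by 2.81 on the log2 scale (SE 0.46, n = 5 per group, edgeR adjusted p = 2.63e-05), from 25 reads over the Glb1KO libraries to 189 over the DKO libraries. Ms4a6d rose 5.69-fold (log2 2.51, SE 0.25, edgeR adjusted p = 1.91e-09) and Ms4a7 5.47-fold (log2 2.45, SE 0.34, edgeR adjusted p = 1.37e-06). These 3 were called with the letter in the fit, against 4.05% of all genes, and among E libraries, against 3.06%. Ms4a6b, with a log2 difference of 0.71 (SE 0.30, edgeR adjusted p = 0.109), did not pass. Mrc1 rose by 0.80 on the log2 scale (SE 0.17, edgeR adjusted p = 0.00102), but stood at 0.50 with the letter in the fit (edgeR adjusted p = 0.296) and at 0.43 among E libraries (edgeR adjusted p = 0.528). The other 5 genes had log2 differences from 0.28 for Pf4 to 1.01 for Cbr2.

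DKO was compared with Neu3KO, for the loss of Glb1 where Neu3 was already lost. Here 6 of the 10 genes were higher in DKO and 0 were lower, against 12.3% of all genes called higher and 12.8% lower. These were Ms4a7 (log2 3.82, SE 0.38), Ms4a6d (3.25, SE 0.27), Ms4a6c (3.16, SE 0.47), Ms4a6b (1.26, SE 0.31), F13a1 (1.12, SE 0.37, edgeR adjusted p = 0.0271) and Mrc1 (1.11, SE 0.18). In all 6 the groups did not overlap, which held for 8.43% of all genes. The call of F13a1 was lost without DKO replicate 5 (0.78, adjusted p = 0.117), without Neu3KO replicate 1 (0.99, adjusted p = 0.078) and without Neu3KO replicate 4 (0.99, adjusted p = 0.0714), all with edgeR. Among W libraries, of which there were 4 in Neu3KO and 3 in DKO, the same 6 genes were called, against 10.8% of 17927 genes. Their log2 changes ran from 1.19 for F13a1 to 3.66 for Ms4a7 there. Pf4 did not reach the filter in that fit. Among E libraries, with 1 Neu3KO library assumed to vary like the other groups, 2 were called, Ms4a7 (4.13) and Ms4a6d (4.36), against 2.94%.

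The interaction asks whether the effects of the knockouts add up on the log scale. It sets the difference between DKO and Glb1KO against that between Neu3KO and WT. Of the 10 genes, 2 were above additivity, Ms4a6d and Ms4a6c, against 3.96% of all genes called above and 2.88% below. Ms4a6d stood at 2.44 (SE 0.41, edgeR adjusted p = 0.000126), and was called in every alternative fit. With the letter in the fit it was the 1 gene of the 10 called, against 3.28% of all genes, as among E libraries, against 0.786%. Ms4a6c stood at 2.64 (SE 0.79, edgeR adjusted p = 0.036), and its call was lost with the letter in the fit (2.11, adjusted p = 0.177), among E libraries (1.57, adjusted p = 0.796) and without any of 10 single libraries. These were WT replicates 3 and 5, Glb1KO replicates 1 and 3, Neu3KO replicates 2, 4 and 5 and DKO replicates 1, 3 and 5, and the highest adjusted p among them was 0.137. Ms4a7 did not pass (1.73, SE 0.69, edgeR adjusted p = 0.142), although it passed on the deposited FPKM scale with limma (1.71, adjusted p = 0.000958) and, with edgeR, without WT replicate 2 (2.05, adjusted p = 0.0497). The estimate for Ms4a6b was 0.007 on the log2 scale. The difference between the estimates of Ms4a6b and Ms4a6c, whose sequences before RefSeq starts are shown above, was not tested.

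The deposited FPKM values, which divide by gene length, allow levels to be ordered between genes. In WT, Pf4 was the highest of the 10 at 0.639 ± 0.167 FPKM, followed by Cd163 at 0.464 ± 0.108 FPKM and Cbr2 at 0.381 ± 0.142 FPKM (SD, n = 5 each). Cbr2, Ms4a6d (0.369 ± 0.123 FPKM) and Mrc1 (0.334 ± 0.0886 FPKM) did not differ by more than their spread. Ms4a7 was the lowest at 0.0362 ± 0.0307 FPKM. In DKO, Ms4a6d was the highest at 3.73 ± 0.183 FPKM and stood well apart from the next. Mrc1 (1.07 ± 0.134 FPKM), Ms4a6c (1.03 ± 0.316 FPKM), Pf4 (0.941 ± 0.388 FPKM), Cbr2 (0.890 ± 0.407 FPKM), Ms4a7 (0.861 ± 0.148 FPKM) and Cd163 (0.749 ± 0.142 FPKM) followed, and neighbours in this order differed by less than their SDs. Mrc1 and Ms4a7 differed by more than either SD. The lowest levels were those of F13a1 (0.530 ± 0.253 FPKM), Lyve1 (0.447 ± 0.147 FPKM) and Ms4a6b (0.425 ± 0.143 FPKM), which did not differ by more than their spread.

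Genes shared by brain macrophages moved in the same comparison, and a level in whole tissue follows both the cells and their RNA. A reference of 10 pan-macrophage genes, among them Csf1r (the receptor for colony stimulating factor 1), Ptprc (CD45) and Adgre1 (F4/80), rose in DKO in 10 of 10 cases. Their median log2 change was 1.71, with Adgre1 at 2.78, Ptprc at 1.85 and Csf1r at 0.63. The summed level of the reference ran from 212.5 to 242.0 CPM in WT and from 485.4 to 603.5 CPM in DKO. Each gene was therefore also set against the mean log2 CPM of the reference in the same library, with a prior count of 2, which shrinks differences of genes with few reads. These ratios were compared with exact two-sided permutation tests, whose smallest p with 5 against 5 libraries is 0.00794, and adjusted over 50 tests. They were computed for the 10 genes only. No share of all genes can therefore be set beside the counts of genes passing or not overlapping on this scale.

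Relative to the reference, 2 genes were higher in DKO than in WT. Ms4a7 rose from a mean of -5.54 to -2.98 (log2, difference 2.57) and Ms4a6d from -3.95 to -2.23 (difference 1.73), each with no overlap, an exact permutation p = 0.00794 and an adjusted exact p = 0.0496. Ms4a6c was higher by 1.46 (exact permutation p = 0.0159, adjusted exact p = 0.0794). The differences for Mrc1 (0.22), Ms4a6b (0.28) and F13a1 (0.17) were smaller than the SD of the WT libraries, and that of Cbr2 (-0.43) was about as large as it. Cd163 (-0.77, adjusted exact p = 0.085), Lyve1 (-0.80, adjusted exact p = 0.117) and Pf4 (-1.04, adjusted exact p = 0.0794) had negative differences that did not pass. Mrc1, Ms4a6c and Cd163, which did not pass, passed under another reference or another single choice. The calls of Ms4a7 and Ms4a6d were lost under other single choices, as given below. With homeostatic microglia genes as the reference, Mrc1 (1.04) and Ms4a6c (2.29) also passed as higher, each with an adjusted exact p = 0.0397, and Cd163 stood at 0.061. With the median of the pan-macrophage genes in place of their mean, Cd163 passed as lower (-0.88, adjusted exact p = 0.0397), as it did without WT replicate 1 (-0.88, adjusted exact p = 0.0441). Ms4a6c also passed with a prior count of 0.5 (1.996, adjusted exact p = 0.0441) and without WT replicate 3 (1.685, adjusted exact p = 0.0441). In DKO vs Glb1KO, 3 genes were higher relative to the reference, Ms4a7 (1.48), Ms4a6c (1.56) and Ms4a6d (1.53). In DKO vs Neu3KO the same 3 were, at 2.15, 1.61 and 1.90, and in each case the groups did not overlap and the adjusted exact p was 0.0496. The calls at an adjusted exact p of 0.0496 sat at the edge of what the design allows. Each had the smallest possible exact permutation p, 0.00794, which passes the adjustment only if enough other tests also reach it. The adjusted value is therefore shared by these calls, and no gene passed on its own values alone. None of these calls held when any DKO library was left out. The differences for Ms4a7 and Ms4a6d in DKO vs WT were then still at least 2.51 and 1.67.

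**Figure D3:**
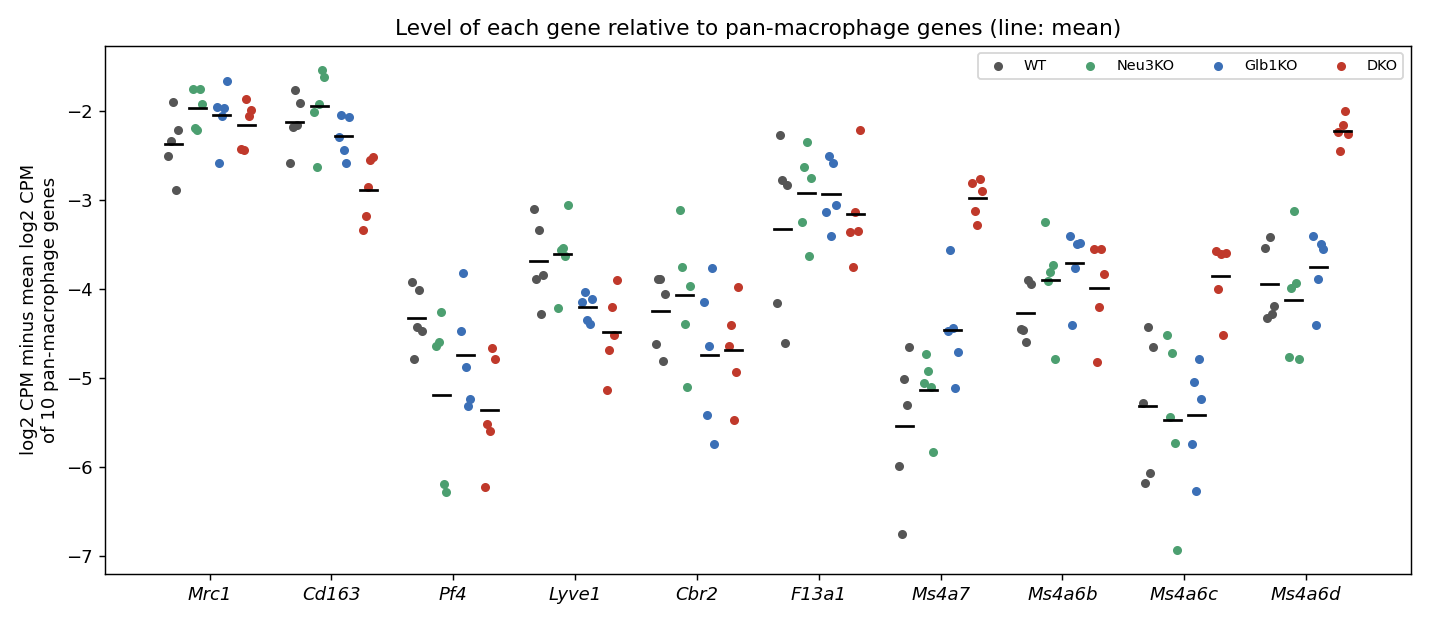
Log2 CPM of each gene minus the mean log2 CPM of 10 pan-macrophage genes in the same library, with 5 points per genotype and a line at the mean. Ms4a7 and Ms4a6d had DKO libraries above all WT libraries (differences of 2.57 and 1.73), while the Cd163 mean was 0.77 lower in DKO than in WT.

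Other border macrophage genes, in a list of 24 also chosen with earlier results known, were described by count. Of 16 that reached the filter, 12 were higher in DKO than in WT, 0 were lower and the median was 0.62, against 1.60 for the 10 genes and -0.003 for all genes. Siglec1, a receptor for sialic acids, was at a log2 change of 3.73 (SE 0.33), Stab1, a scavenger receptor, at 1.16 (SE 0.12), and Dab2, an endocytic adaptor, at 0.90 (SE 0.12). Among the 8 that did not reach the filter were Cd209f, Folr2 and Timd4. In Glb1KO 1 of the 16 was higher, Stab1 at 0.50. Of 5 tested genes from a list for border macrophages with MHC class II, 0 were higher and 1 was lower, Ciita (-0.75, edgeR adjusted p = 0.0108), the class II transactivator. H2-Aa stood at -0.79 (edgeR adjusted p = 0.0581), and the list's median was -0.64. The summed level of the 7 genes in this list ran from 10.7 to 19.66 CPM in WT. In DKO it was 15.38 and 13.55 CPM in the 2 libraries with letter E, within the WT range. It was 8.49, 8.97 and 8.92 CPM in the 3 with letter W. Results for the lists are given without the letter in the fit.

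Of 14 other Ms4a genes listed, 13 did not reach the filter, and Ms4a15 did not pass (-0.17). Among those under the filter, and named after their values were seen, Ms4a4a stood at 0.0917 ± 0.0643 CPM in WT and 0.724 ± 0.275 CPM in DKO, and Ms4a14 at 0.0595 ± 0.0602 and 0.587 ± 0.278 CPM (SD, n = 5 each). In both, every DKO library stood above every WT library, but the share of genes under the filter with this pattern was not computed. Neither was tested, and the others under the filter are not described. Of the 16 genes in the list, which also holds the relatives named next, 7 had no read in WT and 5 had none in DKO. The distant relatives Tmem176a and Tmem176b rose by 1.36 (SE 0.11) and 1.25 (SE 0.11) on the log2 scale. Downstream of the haemoglobin receptor Cd163, in the list of haem and iron handling, 5 of 9 tested genes were higher, with Hmox1, which opens the haem ring, at 2.16 (SE 0.14), the ferritin chains Ftl1 at 1.28 and Fth1 at 0.35, and the iron exporter Slc40a1, also among the border macrophage genes, at 0.49. Among 15 tested ligands and relatives of the 10 genes, 8 were higher and 0 lower. Cd44, a hyaluronan receptor like Lyve1, was at 2.72 (SE 0.13), and the transglutaminases Tgm1 and Tgm2, related to F13a1, at 3.98 (SE 0.36) and 0.66. The related carbonyl reductase Cbr1 was at 0.13 and did not pass.

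**Figure D4:**
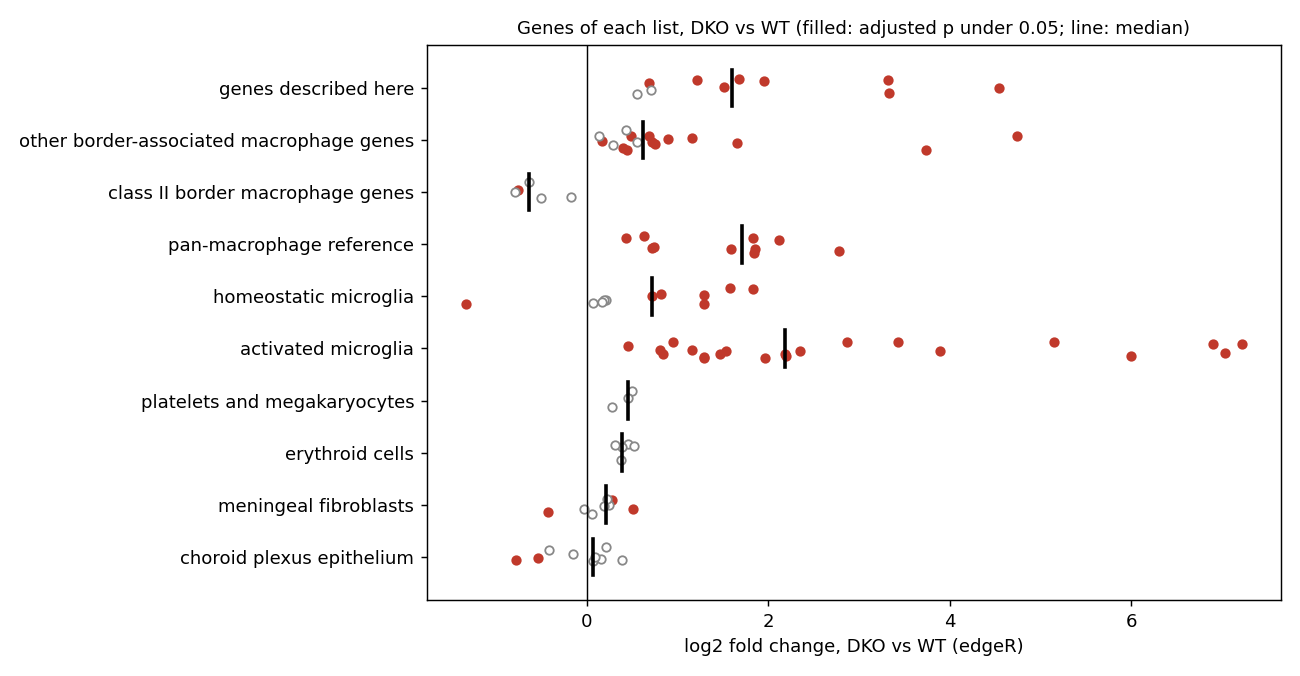
Log2 fold change (edgeR, DKO vs WT) of each tested gene in 10 lists, with filled points where the adjusted p was under 0.05 and a line at each list's median. The medians were 1.60 for the genes described here, 0.62 for other border macrophage genes, -0.64 for class II genes and 2.18 for activated microglia.

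Markers of other cell types that could carry some of these transcripts were measured beside them. Platelets hold Pf4 and F13a1. Of 11 platelet and megakaryocyte genes 3 reached the filter and 0 passed in DKO vs WT, and their summed level ran from 3.27 to 6.27 CPM in WT and from 5.62 to 8.22 CPM in DKO, with Gp6 at 0 in WT. Lymphatic endothelium holds Lyve1, and of 3 tested genes Pdpn, also made by other brain cells, rose by 1.82 while Prox1 fell by 0.24. The summed level of the 5 lymphatic genes ran from 53.5 to 64.3 CPM in WT and from 66.0 to 73.8 CPM in DKO. Monocytes and neutrophils had 3 of 12 genes tested and 3 higher, namely S100a8 (3.27), S100a9 (1.88) and Fn1 (0.27), while Ly6c2 and Ccr2 did not reach the filter and Retnlg and Ly6g were at 0 in WT. Their summed level ran from 64.1 to 81.8 CPM in WT and from 75.7 to 100.4 CPM in DKO. Of 21 activated microglia genes 21 were higher, with a median of 2.18, and of 11 homeostatic microglia genes 6 were higher and 1 lower, with a median of 0.72. Choroid plexus epithelium, also a seat of border macrophages, had 0 of 9 genes higher and 2 lower, Kcne2 (-0.78) and Prlr (-0.53). Blood endothelium had 1 of 6 higher and 1 lower, T, B and dendritic cells 0 of 4 higher and 1 lower (Flt3, -0.32), and mast cells 0 of 1 in either direction. The part of these cell types in the levels of the 10 genes was not tested.

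DKO replicate 5 held the highest DKO level of 5 genes (Cd163, Pf4, Lyve1, Cbr2 and F13a1), at 1.35, 1.55, 1.58, 1.48 and 2.06 times the DKO median. For Ms4a7, Ms4a6b, Ms4a6c and Ms4a6d it stood between 0.989 and 1.06 times the median, and the highest library for all 4 was DKO replicate 1. DKO replicate 5 also had the highest summed level of erythroid genes, 280.6 CPM against 92.4 CPM in the lowest DKO library, and of meningeal fibroblast genes, 93.0 CPM against 67.3 CPM. DKO replicate 2 came next for both lists, at 1.93 and 1.12 times the DKO median. In that library Cd163, Pf4, Lyve1, Cbr2 and F13a1 stood at 0.945, 1, 1, 1.23 and 0.779 times the median. In DKO vs WT, 0 of 5 erythroid genes passed, and of 8 fibroblast genes 2 were higher and 1 lower. The pan-macrophage sum of DKO replicate 5 was 0.995 times the DKO median. Mrc1 stood at 1.216 times its median there, with DKO replicate 3 highest at 1.255. The platelet and choroid plexus sums stood at 1.178 and 1, with DKO replicate 3 highest at 1.361 and 1.185. The lymphatic sum of DKO replicate 5, 65.99 CPM, was the lowest in DKO. The part of retained meninges or blood in this library's values was not tested. Without DKO replicate 5, 7 of the 10 genes were higher in DKO than in WT, against 12.1% of 18567 genes tested, Cbr2 being the gene lost. Cd163 was then at 0.58 (edgeR adjusted p = 0.0488) and F13a1 at 1.18 (edgeR adjusted p = 0.0147).

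**Figure D5:**
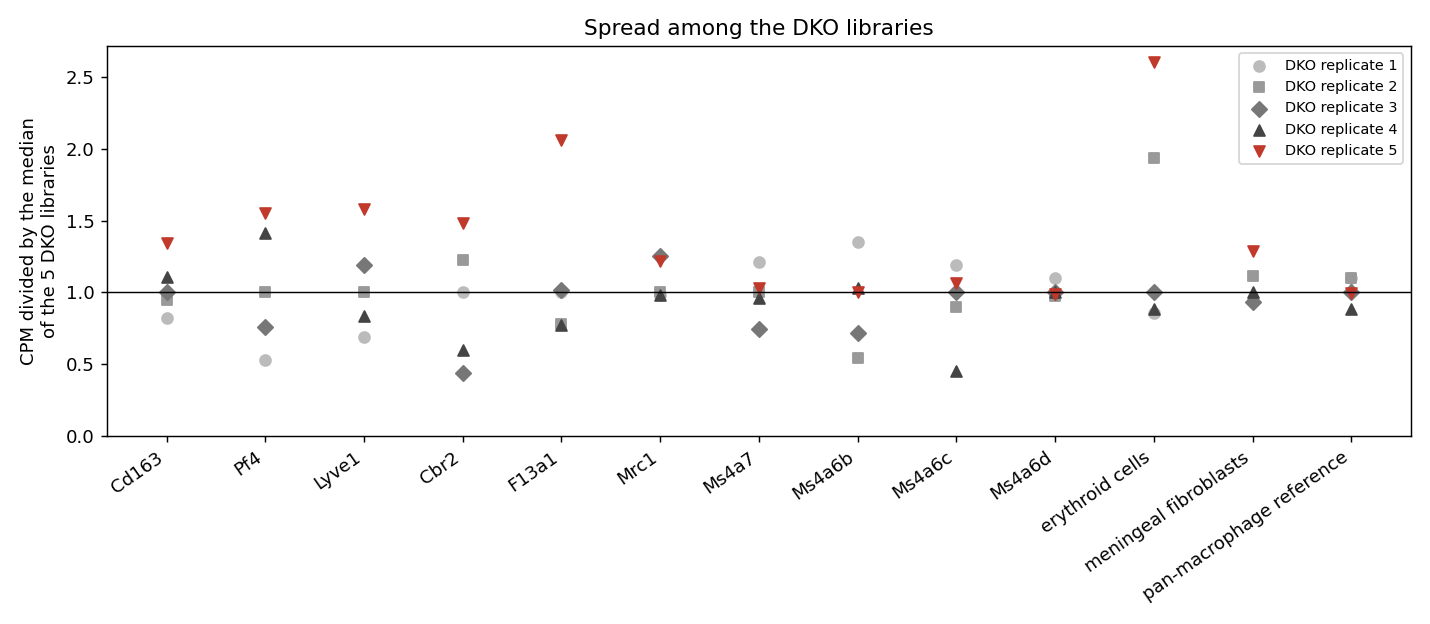
CPM of each gene, and summed CPM of 3 marker lists, in each DKO library divided by the median of the 5 DKO libraries. DKO replicate 5 stood at 2.06 for F13a1 and 2.61 for erythroid genes, but between 0.989 and 1.06 for the Ms4a genes. DKO replicate 2 stood at 0.779 for F13a1 and 1.93 for erythroid genes.

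The genes most like each of the 10 across libraries were found by Pearson correlation of log2 CPM over all 20 libraries, as a description in which genotype and sequencing depth are shared by the points. For Ms4a7 these were Cd180 (0.961), C1qc (0.959) and H2-K1 (0.957). Ms4a6d was closest to Tent5c (0.963), H2-K1 (0.960) and Plek (0.956), and Ms4a6c to Tmem86a (0.922). The genes closest to Mrc1 were Pik3ap1 (0.930), Tnfrsf1b (0.923) and Gas2l3 (0.920). For Ms4a6b, Lilrb4a (0.874) and Lyz2 (0.868) came first. The closest genes of the others were Arhgdib for F13a1 (0.868), Gm35315 for Pf4 (0.835), Tmf1 for Cd163 (0.819), Emilin1 for Cbr2 (0.810) and Pon2 for Lyve1 (0.792).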

How the data were processed

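The authors deposited read counts per gene and FPKM values per gene for 20 libraries, and a table of log2 fold changes with p-values for DKO against WT. Per the submitters' processing notes, the tools were DESeq2 1.20.0, featureCounts 1.5.0-p3, HISAT2 2.0.5 and fastp, with builds mm10 and GRCm38; their settings, and whether counting used strand, are not given in the sources used here. Genotypes were taken from the labels.

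The deposited counts were fitted over all 20 libraries with edgeR 4.0.16 (R 4.3.3): TMM scaling, the default filter for low counts, a robust quasi-likelihood test and Benjamini-Hochberg adjustment over 18336 genes at a threshold of 0.05. SE is the size of the log2 change divided by the square root of F. Values relative to the macrophage reference used log2 CPM (prior count 2) with exact permutation tests over 252 arrangements. Alternatives were other scalings and filters, DESeq2 1.42.0, limma 3.58.1 on log2(FPKM + 0.1), the replicate number as a block, the identifier letter and leaving out each library. The comparison among W libraries was added after the data were seen. The fit was also run on simulated data with changes placed in DKO, and the outcome is not used here. Promoters were read with Python 3.11.15 and aligned with Biopython 1.88. Transcript overlap used 100-base stretches of GENCODE M21 transcripts.

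The 10 genes and the lists were chosen with earlier results of these data known. From each list the text names up to 4 genes with the smallest adjusted p in DKO vs WT and up to 2 with the highest level. Not all of these are named, and genes at 0 or under the filter were named after their values were seen. For likeness, the closest protein-coding genes are named. Total counts of 15162311 to 25145806 per library gave the 10 genes from 0 to 145 reads in a library, which limits the precision of each value.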

Additional observations from a re-analysis of the deposited data

Results flagged for a closer look

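In 40 groups of 5 libraries (10 genes in 4 genotypes), 3 had a library far from the others by Dixon's criterion, and chance gives about 1 in 20. These were F13a1 in DKO replicate 5 (6.58 CPM), Ms4a7 in Glb1KO replicate 2 (1.38 CPM) and Ms4a6d in DKO replicate 1 (7.06 CPM). The effect of losing Neu3 differed between mice with and without Glb1 for Ms4a6c (interaction 2.64 on the log2 scale) and Ms4a6d (2.44), both by edgeR's test of the interaction. The call of Ms4a6c was lost with the identifier letter in the fit and without any of 10 single libraries, with an adjusted p up to 0.137 among the latter.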

How the results depend on the processing

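Of 2052 values of single genes under the alternatives, 1893 kept their direction and side of the threshold, 93 lost the call, 13 gained it and 53 changed sign; 0 of the 53 had passed in either fit. Neu3KO vs WT gave 0 called genes of the 10 under all 31 settings. Among E libraries the number of the 10 genes called was 5 in DKO vs WT, 1 in Glb1KO vs WT, 2 in DKO vs Neu3KO and 1 for the interaction. With the letter as a term it was 1 in Glb1KO vs WT and 1 for the interaction. Leaving out single libraries gave 1 to 3 for the interaction, but the shares of all genes called in those fits are not given here. The cause was not tested.

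Same-numbered libraries did not deviate together over all genes tested (mean r -0.00238 over 30 pairs, from -0.129 to 0.0646). Of 20 libraries, 2 correlated best with their own number. These correlations cannot show whether same-numbered libraries share more than a number for single genes. With the replicate number as a block, the interaction call of Ms4a6c was lost (2.59, edgeR adjusted p = 0.06). The call of Cbr2 in DKO vs WT was also lost (1.17, edgeR adjusted p = 0.0506).

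Relative to homeostatic microglia genes, 4 genes passed in DKO vs WT instead of 2, Mrc1 and Ms4a6c being added, and Cd163 (0.061), Lyve1 (0.027) and Cbr2 (0.39) turned positive. Leaving out single libraries gave 0 to 3 genes in DKO vs WT, 0 to 1 in Glb1KO vs WT, 0 to 3 in DKO vs Glb1KO and 0 to 4 in DKO vs Neu3KO; with 4 against 5 libraries fewer arrangements exist (126).

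Signs that changed, on the log2 scale, all belonged to values that did not pass. With the letter as a term these were Pf4 in Glb1KO vs WT (-0.53), Lyve1 (-0.32), F13a1 (-0.078) and Ms4a6d (-0.11) in Neu3KO vs WT, and Cd163 (0.025) and Ms4a6b (-0.25) for the interaction. Among E libraries they were Pf4 (-0.53), Lyve1 (-0.61), F13a1 (-0.16) and Ms4a6d (-0.99) in the same comparisons, and Mrc1 (-0.22), Cbr2 (-0.22) and Ms4a6b (-0.67) for the interaction. Ms4a6b also changed sign for the interaction with no filter (-0.0019) and with the replicate block (-0.0094), and Lyve1 in Glb1KO vs WT on the FPKM scale (0.013). Without single libraries, Glb1KO vs WT ran from -0.17 to 0.41 for Cbr2, -0.15 to 0.41 for Pf4 and -0.15 to 0.12 for Lyve1, and Neu3KO vs WT from -0.21 to 0.56 for Ms4a6c and -0.28 to 0.29 for Ms4a6d. The interaction ran from -0.19 to 0.078 for Cd163, -0.016 to 0.59 for F13a1 and -0.16 to 0.19 for Ms4a6b, and F13a1 relative to the reference in DKO vs WT from -0.15 to 0.43.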
